A study of Rattus norvegicus with 6 samples.

Results

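The 9 genes described here carry out the uptake, vesicular storage, synthesis and breakdown of the monoamine transmitters serotonin, dopamine and noradrenaline. They were taken by symbol, as every probe set annotated to exactly 1 gene with one of these names, which gave 1 probe set per gene, from 15310 single-gene probe sets on the array, 29215 probe sets in all and 14506 genes. The set was chosen by function around Slc6a4, the serotonin transporter gene, which was itself selected on measured values, its array intensities, because they read lower after C1q with no overlap between the groups. That contrast is therefore given as a description, with no test. The other 8 genes were chosen for their role in the same pathway, though with earlier results of these data known.

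Transcript levels were measured in primary cortical neurons, called immature by the submitters, of Sprague-Dawley rat embryos (embryonic day 18), cultured for 3 days in NB-N2 medium, on 1-colour Affymetrix arrays. The treated group held 3 arrays of neurons given C1q, the recognition protein of the classical complement pathway, at 10 nM for 3 h. The control group held 3 arrays of neurons left untreated. The labels do not say whether the arrays of a group came from separate cultures, so the spread behind each p-value may be technical. Values are intensities on a linear scale. Array medians ran from 147 to 149.8 in the C1q group and from 149.8 to 155 in the untreated group, and the lower quartile was highest on untreated array 2, at 56.4, against 50.6 to 52.9 on the other arrays. Fold changes are C1q over untreated on the log2(intensity + 16) scale, which understates the change of dim genes. Probe sets with a mean above an intensity of 94.4 were tested together with limma, 17529 in all, and no probe set passed an adjusted p of 0.05: 0 were higher (0%) and 0 lower (0%), against 109 and 328 at an unadjusted p under 0.05. These unadjusted counts depended on the scaling, with 195 higher and 311 lower after quantile normalization and 182 higher and 158 lower after median centring.

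Monoamine neurons lie in brainstem nuclei and send long axons into the cortex, where released transmitter is cleared by plasma membrane transporters, repacked into vesicles or degraded by monoamine oxidases. The cell bodies that make the transmitters are not part of the cortex, whereas transporters and oxidases also occur in cells that do not make monoamines. In developing rodents, for example, some thalamic neurons that synthesise no serotonin transiently express the serotonin transporter.

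In these cultures 3 of the 9 genes lay above the filter intensity: Slc6a4, the vesicular transporter gene Slc18a2 and the oxidase gene Maoa. The other 6, Slc6a2, Slc6a3, Maob, Tph2, Th and Ddc, lay below it and were described with no test. The 3 synthesis genes are all among these 6. Of the 9 genes, Slc6a4 alone showed no overlap between the groups. Arrays lay lower after C1q without overlap for 5.18% of all 29215 probe sets and for 4.42% of those tested, and higher without overlap for 1.88% of all. The lower direction led on the deposited scale but not after either rescaling tried. Of 14506 genes with 1 probe set each, 677 lay lower and 241 higher without overlap as deposited, 526 lower and 615 higher after quantile normalization, and 323 lower and 399 higher after median centring. Nothing is read from the member that the choice itself fixed.

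**Figure D1:**
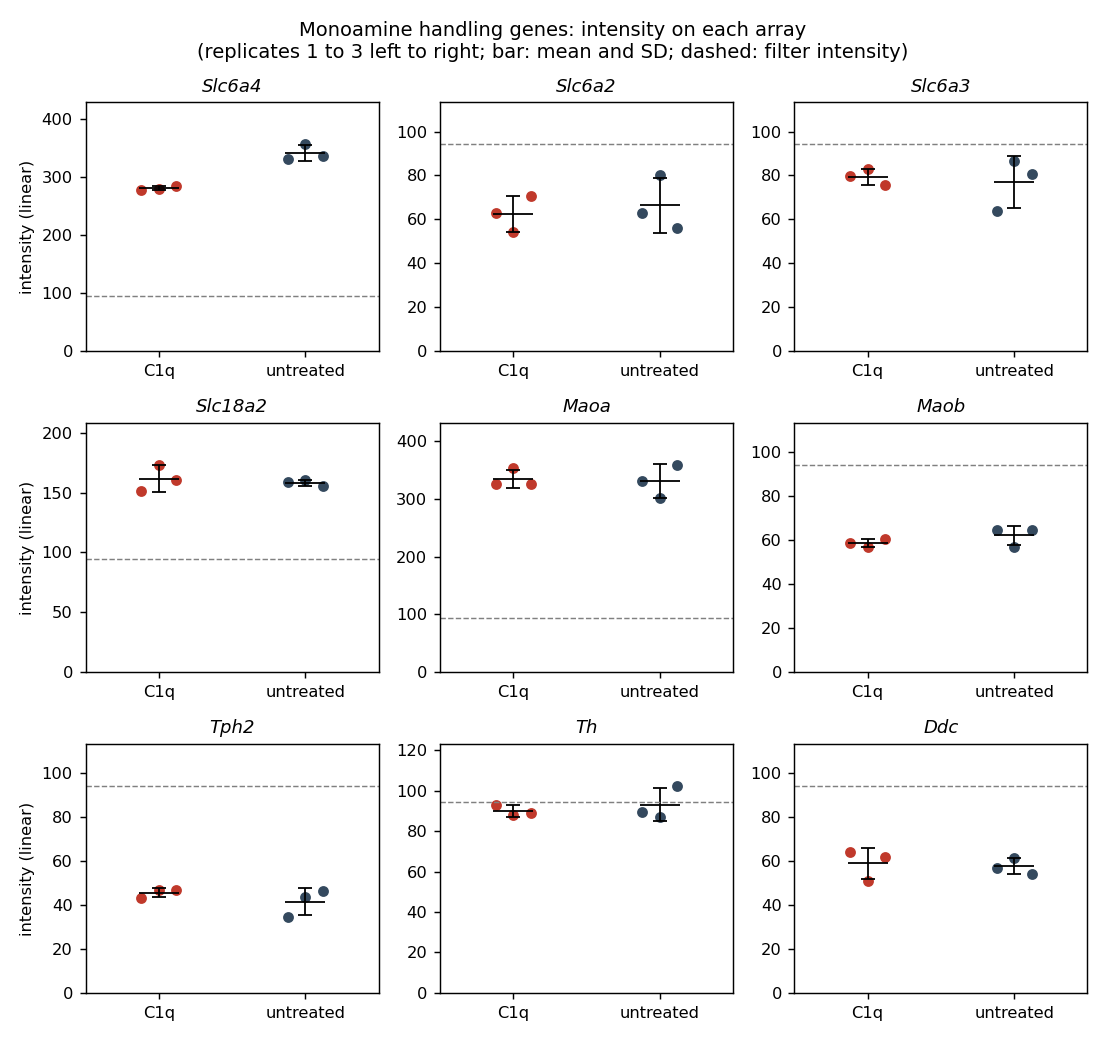
Intensity of the 9 genes on a linear axis from 0, with C1q arrays on the left and untreated arrays on the right of each panel, points for arrays 1 to 3 from left to right, bars for mean and SD, and a dashed line at the filter intensity of 94.4. The C1q arrays of Slc6a4 sit between 278 and 284 and its untreated arrays between 332 and 357, while the groups overlap in the other 8 panels.

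Slc6a4 encodes the transporter that returns serotonin into cells and is the target of selective serotonin reuptake inhibitors. Its probe set read 278, 279.9 and 284 on the C1q arrays, against 332, 357 and 335 on the untreated arrays. The highest C1q array thus lay below the lowest untreated array, and the C1q arrays lay closer together than the untreated ones. The means were 281 ± 3.23 after C1q and 341 ± 13.9 untreated (SD, n = 3 each), a fold change of 0.831, or -0.27 on the log2 scale. By fold change it ranked 113 from the lowest of the 17529 probe sets tested, whose median log2 fold change was -0.019. In bulk samples, fewer cells expressing a gene and less of its RNA per cell cannot be told apart.

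The same 6 values of Slc6a4 can be put on other scales, which describes them further and adds no evidence of a difference, since the gene was chosen on them. Its percentile among all probe sets of the same array, which multiplying an array by a factor does not alter, was 61.2, 61.1 and 61.8 on the C1q arrays and 63.6, 65.7 and 64.2 on the untreated arrays. The log2 fold change was -0.25 after quantile normalization and -0.24 after median centring. The within-group SD of Slc6a4, pooled over both groups, was 0.041 on the log2 scale, a value that choosing a gene for groups without overlap favours being small. Leaving out untreated array 2, on which Slc6a4 was highest, gave a log2 fold change of -0.24.

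Slc6a2 and Slc6a3 encode the noradrenaline and dopamine transporters, the closest relatives of the serotonin transporter, and both lay below the filter. Slc6a2 read 62.9, 54.3 and 70.7 on the C1q arrays and 62.7, 80.2 and 56.1 on the untreated arrays. Untreated array 2 was the highest of all, and the ranges of the groups overlapped. Slc6a3 read 79.9, 82.8 and 75.6 after C1q and 63.9, 86.7 and 80.5 untreated. The untreated arrays held both its lowest and its highest value. Log2 fold changes were -0.06 for Slc6a2 and 0.04 for Slc6a3, with pooled within-group SDs of 0.18 and 0.14, and each changed sign under some alternatives, 3 of 12 for Slc6a2 and 2 of 12 for Slc6a3.

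Slc18a2 encodes the vesicular monoamine transporter of neurons, which loads serotonin, dopamine and noradrenaline into synaptic vesicles. It read 151, 173 and 160.4 on the C1q arrays, against 159, 161 and 156 on the untreated arrays. The 3 untreated values lay within the range of the C1q values. Means were 162 ± 11.2 after C1q and 158 ± 2.57 untreated (SD, n = 3 each), a ratio of 1.02 (95% interval 0.889 to 1.17, limma's adjusted p = 0.9999). The log2 fold change was 0.03, and -0.02 without C1q array 2.

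Maoa and Maob encode the oxidases of the outer mitochondrial membrane that deaminate monoamines, Maoa with a preference for serotonin and noradrenaline. Maoa read 326, 353 and 326 on the C1q arrays and 332, 301 and 359.6 on the untreated arrays. Untreated arrays gave both the lowest and the highest value. Means were 335 ± 15.7 after C1q and 331 ± 29.2 untreated (SD, n = 3 each), a ratio of 1.01 (95% interval 0.898 to 1.14, limma's adjusted p = 0.9999). The sign of this difference turned with the arrays used, from 0.02 on the log2 scale to -0.02 without C1q array 2 and -0.04 without untreated array 2. Maob, below the filter, read 58.9, 57.0 and 60.4 after C1q and 64.9, 57.1 and 64.5 untreated. Untreated array 2 fell within the C1q range, so the groups overlapped, and the log2 fold change was -0.06.

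The start regions of Maoa and Maob are shown because these 2 genes are neighbours, with 0 genes listed between them on the X chromosome, yet their probe sets fell on opposite sides of the filter. Each window runs from 250 bases before to 50 bases after a start site in RefSeq's GRCr8 table, and capitals mark the letters GGGCGG on either strand, the core of the GC box bound by Sp1-type factors. Positions count from the start site, negative before it, and give the first base of a match.
Maoa (chrX:8681323-8681622, minus strand): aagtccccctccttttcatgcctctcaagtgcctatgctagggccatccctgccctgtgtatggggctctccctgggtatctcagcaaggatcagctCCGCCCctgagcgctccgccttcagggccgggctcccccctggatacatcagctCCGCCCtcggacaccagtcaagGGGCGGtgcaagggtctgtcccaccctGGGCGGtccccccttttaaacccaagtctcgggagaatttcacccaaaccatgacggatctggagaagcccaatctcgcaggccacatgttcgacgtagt
Maob (chrX:8490155-8490454, plus strand): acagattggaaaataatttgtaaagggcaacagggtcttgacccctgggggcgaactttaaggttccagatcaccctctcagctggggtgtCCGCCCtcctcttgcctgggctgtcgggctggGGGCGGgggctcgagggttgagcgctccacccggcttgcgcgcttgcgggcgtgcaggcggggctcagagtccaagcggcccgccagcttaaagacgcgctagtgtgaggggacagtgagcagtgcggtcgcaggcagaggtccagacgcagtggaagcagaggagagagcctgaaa
The Maoa window held 4 matches, at -153, -99, -77 and -50, and the Maob window 2, at -159 and -127. Slc6a3, below the filter, and Slc18a2, above it, held 3 matches each. Tph2, Th and Ddc, all below it, held 0. Of 33469 windows of this length in the table, 33.1% held at least 1 such match. The matches are a description of the letters and are no measure of binding. A link between matches and probe set levels was not tested.

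Tph2, Th and Ddc encode the synthesis enzymes. Tph2, tryptophan hydroxylase 2, sets the rate of serotonin synthesis in neurons and had the lowest untreated level among the 9 probe sets. It read 43.1, 47.0 and 47.0 on the C1q arrays and 34.6, 43.7 and 46.5 on the untreated arrays, where array 1 was lowest. Without that array its log2 fold change was 0.01, against 0.10 with all arrays. Th, tyrosine hydroxylase, sets the rate of catecholamine synthesis and read 93.1, 87.8 and 89.1 after C1q against 89.5, 87.3 and 103 untreated. It lay just under the filter, all 3 C1q values fell within the untreated range, and its log2 fold change was -0.04, or 0.02 without untreated array 3, its highest. Ddc, the decarboxylase that completes both serotonin and dopamine synthesis, read 64.1, 51.0 and 61.8 after C1q and 57.1, 61.6 and 54.3 untreated. Its groups overlapped too, at a log2 fold change of 0.02.

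Of the 9 genes, 7 had a start region in the table and Slc6a4 and Slc6a2 had none. Slc18a2 and Th are printed because both held a full cAMP response element, TGACGTCA, here in capitals, the palindrome bound by CREB-family factors. It was found in 1.8% of all windows and in no other window of these genes.
Slc18a2 (chr1:268399771-268400070, plus strand): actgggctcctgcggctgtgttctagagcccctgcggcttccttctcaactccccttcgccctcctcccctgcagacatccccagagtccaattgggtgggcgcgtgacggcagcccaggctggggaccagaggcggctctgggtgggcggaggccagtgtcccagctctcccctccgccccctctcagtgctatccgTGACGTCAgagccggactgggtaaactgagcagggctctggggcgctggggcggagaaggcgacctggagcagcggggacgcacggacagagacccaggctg
Th (chr1:207508169-207508468, minus strand): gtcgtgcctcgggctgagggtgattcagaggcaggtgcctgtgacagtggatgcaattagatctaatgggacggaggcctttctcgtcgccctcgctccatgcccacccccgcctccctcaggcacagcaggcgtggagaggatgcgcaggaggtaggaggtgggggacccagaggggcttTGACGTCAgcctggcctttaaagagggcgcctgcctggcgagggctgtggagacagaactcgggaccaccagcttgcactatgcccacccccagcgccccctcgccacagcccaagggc
The element began at -52 in Slc18a2 and at -69 in Th and overlapped no GGGCGG match in either window. The values of both genes overlapped between the groups, as given above.

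**Figure D2:**
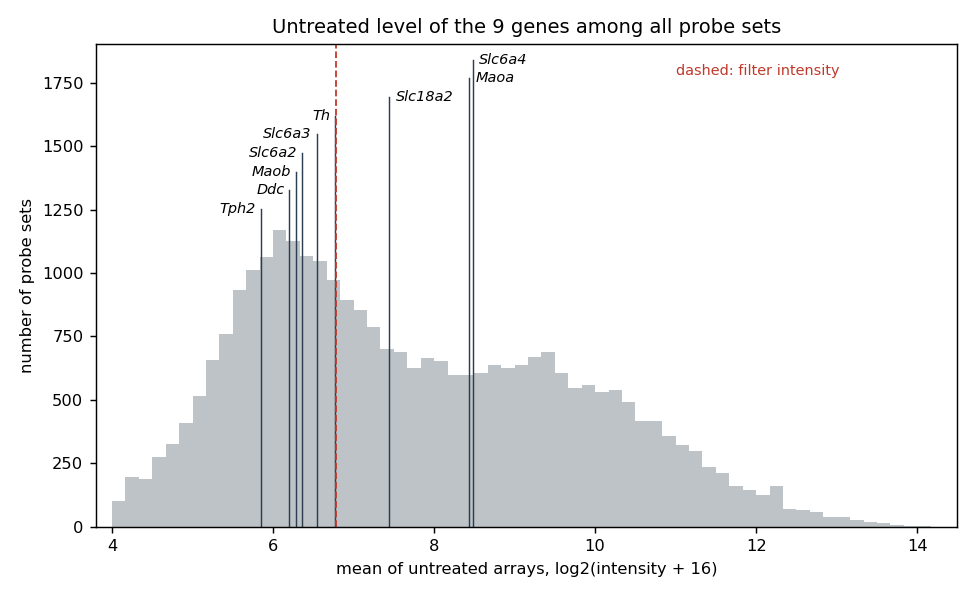
Number of probe sets (vertical axis) by mean log2(intensity + 16) of the 3 untreated arrays (horizontal axis) for all 29215 probe sets, with a line for each of the 9 genes and a dashed line at the filter intensity of 94.4. Slc6a4 and Maoa stand together at percentiles 64.4 and 63.9, Slc18a2 at 50.8, and the other 6 between percentiles 18.7 and 39.2.

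By untreated level, the percentile among all probe sets was 64.4 for Slc6a4, 63.9 for Maoa and 50.8 for Slc18a2. It was 39.2 for Th, 34.4 for Slc6a3, 30.5 for Slc6a2, 29.0 for Maob, 26.8 for Ddc and 18.7 for Tph2. After C1q the percentiles were 61.3 for Slc6a4, 64.4 for Maoa and 51.5 for Slc18a2, and those of the other 6 genes lay between 21.7 and 39.1. In the untreated arrays Slc6a4 and Maoa overlapped, at 332 to 357 and 301 to 359.6. So did Slc6a3 with Slc6a2, Slc6a2 with Maob, and Maob with Ddc, while Slc18a2, Th and Tph2 overlapped with neither neighbour in this order. Probe sets differ in how brightly they bind, so this order places each probe set among the others and does not rank the transcripts. No background level was used here, so the share of background in values near the lower quartile of an array is unknown.

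The labelled cell type and the monoamine cell types were checked against marker lists. The 7 cortical neuron markers measured, among them Tubb3, Dcx and Neurod6, read between 709 and 9005, all above the filter. Of the 6 serotonergic markers, 2 lay above the filter, Fev and Lmx1b. Htr1a, a serotonin autoreceptor gene of raphe neurons, averaged 49.9 ± 1.44 after C1q and 50.7 ± 0.175 untreated (SD, n = 3 each), and Fev, the transcription factor gene that defines serotonergic neurons, 140.3 ± 11.6 and 151 ± 20.0. Lmx1b, a transcription factor gene needed by these neurons, averaged 349 ± 19.5 after C1q and 367 ± 41.5 untreated. The rest of the list, all below the filter, had higher means after C1q. Tph2, Slc22a3 and Gata3 averaged 45.7, 42.7 and 85.6 after C1q and 41.6, 37.4 and 84.9 untreated. Each of the 6 markers overlapped between the groups. The summed level of the serotonergic list ran from 692 to 726 on the C1q arrays and from 669 to 794 on the untreated arrays. Lmx1b made up 49.5% of it. For platelets, which take up serotonin through Slc6a4, the summed level of 5 markers, 3 of them above the filter, ran from 417 to 478 after C1q and from 403 to 531 untreated. The summed level of 8 mast cell markers ran from 1468 to 1512 after C1q and from 1480 to 1547 untreated, but Kit made up 69.5% of it and 6 of the 8 lay under the filter. Thalamic sums, with 5 of 7 markers measured, were 2693 to 2856 after C1q and 2645 to 2827 untreated, with Lhx2 making up 50.5%. Astrocyte sums were 2095 to 2163 after C1q and 2017 to 2192 untreated, and microglial sums 545 to 575 and 525 to 592, with 7 of 8 microglial markers under the filter. Catecholaminergic sums ran from 441 to 517 after C1q and from 482 to 592 untreated, and endothelial sums from 478 to 531 and from 508 to 567. Mural and meningeal sums ran from 7249 to 7468 after C1q and from 7422 to 7847 untreated, with Acta2 making up 90.1%. The groups overlapped in each of these sums. Without the brightest gene of each list the sums still overlapped, mast cells at 448 to 495 after C1q and 344 to 508 untreated and mural cells at 716 to 763 and 689 to 834, with the exception of endothelium. Endothelial sums without Cldn5 were 373 to 396 after C1q and 401 to 427 untreated, with no overlap. However, 5 of the 7 endothelial markers lay under the filter, and all these sums were taken on the deposited scale only. The part of any of these cell types in the Slc6a4 values was not tested.

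The genes whose 6 array values lay nearest to those of Slc6a4, by root mean square difference of mean-centred log2 values, were Olr1454, Or52ad1, Cpn1, Creb3l1 and Rhbdf1. The differences were 0.040 to 0.053 over 6 arrays, against a median of 0.151 over the 9652 tested genes. Olr1454 and Or52ad1 are olfactory receptor genes, Cpn1 encodes the catalytic subunit of carboxypeptidase N, Creb3l1 a membrane-bound transcription factor and Rhbdf1 an inactive rhomboid protein. Their means ran from 90.1 to 136 after C1q and from 109.6 to 163 untreated. They were picked for a likeness to Slc6a4 and carry its separation by construction.

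Further genes of monoamine handling were taken from 6 lists, 64 of 83 measured and 39 tested. None of the 39 passed in either direction (0 higher and 0 lower by limma). Of the 39, 0 had an unadjusted p under 0.05, against 66 of the 9652 tested genes. The 0 is close to that low share and is no result about these genes. The median log2 fold change of the 39 was -0.027, against -0.016 over the 9652 tested genes. In these lists 10 means were higher and 29 lower, against 3565 higher and 6081 lower over all tested genes. After quantile normalization 18 means were higher and 21 lower, against 5127 and 4520 over all. After median centring the counts were 19 and 20, against 5688 and 3955. The counts of means in the separate lists below stand against the same background. Of the 64 genes, 9 lay lower after C1q without overlap, 14.1%, against 4.67% of all 14506 genes measured, and 0 lay higher, against 1.66%. With quantile normalization 3 lay lower, or 4.69% against 3.63% of all genes, and 0 higher against 4.24%. With median centring 4 lay lower, or 6.25% against 2.23%, and 0 higher against 2.75%.

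**Figure D3:**
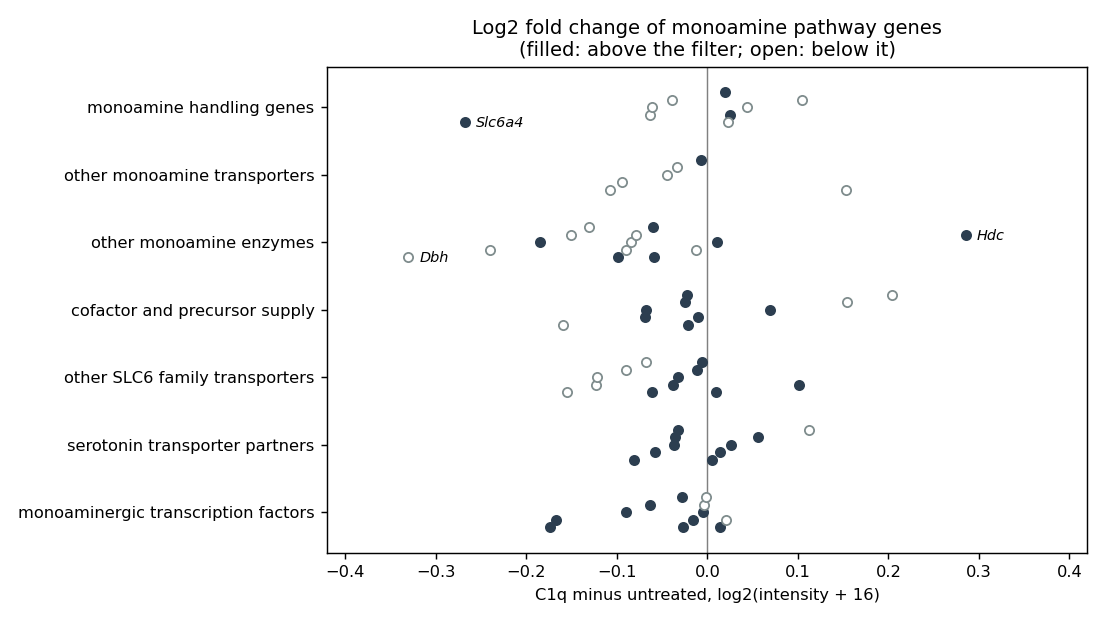
Log2 fold change, C1q minus untreated, of each measured gene (points) in the 9 member genes and 6 further lists, filled above and open below the filter. Slc6a4, chosen for its lower values after C1q, lies at -0.27, the other 8 members lie between -0.06 and 0.10, Dbh below the filter lies at -0.33 and Hdc at 0.29, and most other filled points lie within 0.1 of 0.

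Among other enzymes of the pathway, 6 of 14 measured genes were tested, with a median log2 fold change of -0.059. Dbh, which turns dopamine into noradrenaline, lay below the filter and read 54.7, 45.8 and 40.2 on the C1q arrays against 58.6, 67.4 and 62.5 on the untreated arrays. Neither Dbh nor Aanat overlapped on this scale or with either rescaling. Hnmt, below the filter, lay lower without overlap as deposited and with median centring only. Dbh and Hnmt were named after their values were seen. Among the 14 genes, the share lower without overlap was 21.4% as deposited, against 4.67% of all genes measured. It was 14.3% against 3.63% with quantile normalization and 21.4% against 2.23% with median centring. Aanat, an enzyme of melatonin synthesis, read 139, 132 and 137 after C1q and 143, 183 and 148 untreated, where array 2 was highest. Its ratio was 0.880 (95% interval 0.751 to 1.03). Hdc, the histamine synthesis gene, had a ratio of 1.22 (95% interval 0.834 to 1.78), and its untreated array 1 read 101 against 236 and 259 on the other untreated arrays. Asmt and the aldehyde dehydrogenase gene Aldh2 had fold changes of 0.960 and 1.01.

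Of 6 other transporter genes measured, only Slc29a4, the plasma membrane monoamine transporter gene, was tested. It read 1621 ± 57.8 after C1q and 1631 ± 121 untreated (SD, n = 3 each), a ratio of 0.995 (95% interval 0.912 to 1.09). The vesicular transporter gene Slc18a1 and the organic cation transporter genes Slc22a2 and Slc22a3 lay below the filter. Of 10 genes of cofactor and precursor supply, 7 were tested, with 1 mean higher and 6 lower, or 2 and 5 with quantile normalization and 5 and 2 with median centring. Slc7a5 and Slc3a2, which together form a transporter of large neutral amino acids including tryptophan and tyrosine, had fold changes of 0.954 and 0.953. Slc7a5 alone of the 10 lay lower without overlap as deposited, 10% against 4.67% of all genes measured. Its groups overlapped after either rescaling.

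Of 12 measured relatives of Slc6a4 in the SLC6 family, 7 were tested, with 2 means higher and 5 lower. Quantile normalization and median centring each gave 4 higher and 3 lower. The taurine transporter gene Slc6a6 averaged 1785 ± 32.5 after C1q and 1834 ± 9.75 untreated, and the glycine transporter gene Slc6a9 687 ± 9.56 and 717 ± 15.2 (SD, n = 3 each). Of the 12 genes, 4 lay lower without overlap on the deposited scale, 33.3% against 4.67% of all genes measured. They were Slc6a5, Slc6a6, Slc6a9 and Slc6a18, named here after their values were seen. Slc6a18, a kidney amino acid transporter gene, lay below the filter and read 48.6, 46.9 and 48.5 on the C1q arrays against 51.5, 55.6 and 53.9 on the untreated arrays. It stayed free of overlap after quantile normalization and median centring, whereas the other 3 overlapped after either. The share of the 12 genes was then 8.33% on each scale, against 3.63% and 2.23% of all genes. Fold changes were 0.974 for Slc6a6 and 0.959 for Slc6a9, with 1.07 for the proline transporter gene Slc6a7 and 0.978 for Slc6a15.

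Of 10 measured genes for described partners and regulators of the serotonin transporter, 9 were tested, with 4 means higher and 5 lower and none free of overlap. Stx1a, whose syntaxin binds the transporter, had a fold change of 0.961, Tgfb1i1 0.946, and the phosphatase genes Ppp2ca and Ppp3ca 0.978 and 0.975. Of 12 transcription factor genes of monoaminergic neurons measured, 9 were tested, with 1 mean higher and 8 lower, or 4 and 5 with quantile normalization and 3 and 6 with median centring. Hand2 read 134 ± 8.19 after C1q and 153 ± 7.22 untreated (SD, n = 3 each), and Pitx3, a factor of midbrain dopamine neurons, 146 ± 10.8 and 167 ± 21.6. Nr4a2, which dopamine neurons need but cortical neurons express too, averaged 1874 ± 56.6 and 1881 ± 71.4, a ratio of 0.996 (95% interval 0.927 to 1.07). Hand2 alone of the 12 lay lower without overlap as deposited, 8.33% against 4.67% of all genes measured. Its groups overlapped after either rescaling.

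**Figure D4:**
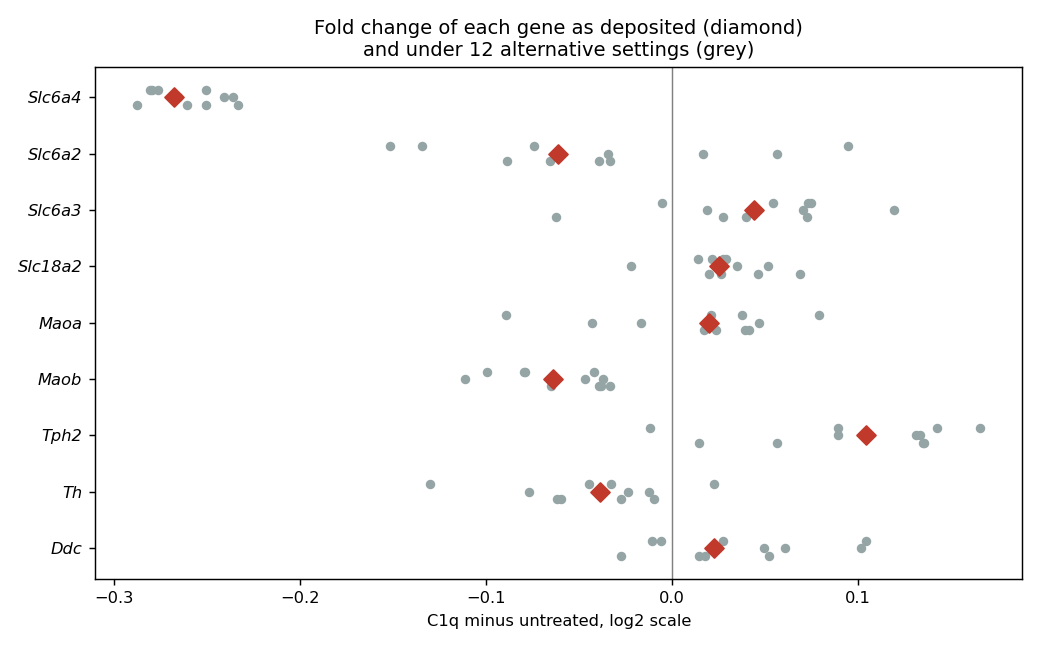
Log2 fold change of each of the 9 genes, C1q minus untreated, as deposited (diamond) and under 12 alternative settings (grey points). Slc6a4 runs from -0.29 to -0.23, Maob from -0.11 to -0.03, and the other 7 genes cross 0 under at least 1 setting.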

How the data were processed

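The 6 deposited columns hold 1 intensity per probe set, on a linear scale. Per the labels' protocols, biotin-labelled cRNA was prepared from column-purified total RNA by the standard Affymetrix method. The summarisation and normalization behind the deposited intensities were not stated in the labels (not given in the sources used here). Gene names came from the platform annotation and were checked against RefSeq's GRCr8 table by gene identifier (15279 of 15310 matched, 0 symbols changed). A further 323 probe sets name several genes and 13582 none.

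Values were analysed as log2(intensity + 16), since array medians differed by at most 0.07 on that scale. The brightest 60% of probe sets by mean (17529) were fitted in limma 3.58.1 (R 4.3.3), using lmFit and trended eBayes, with Benjamini-Hochberg adjustment over all of them. The smallest adjusted p was 0.9999. The procedure was tested on simulated data with independent noise and added increases only. That simulation does not cover noise shared by the probe sets of an array, nor decreases. A gene in a list was represented by its brightest probe set. Named genes of the pathway lists were the 2 of smallest unadjusted p and the 2 brightest among those tested. Apart from cell type markers, the exceptions were Dbh, Hnmt, Slc6a5, Slc6a18, Slc18a1, Slc22a2 and Slc22a3. The members and lists were chosen with earlier results of these data known. The number of arrays limits the precision.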

Additional observations from a re-analysis of the deposited data

How the results depend on the processing

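Slc6a4 had log2 fold changes of -0.29 to -0.23 under the 12 alternatives, and -0.29 to -0.24 when leaving out 1 array at a time. Its groups were chosen not to overlap, which fixes the sign when 1 array is left out and favours it elsewhere, so this is no measure of stability. Averaging several probe sets per gene was not run, since each member has 1. Maob was below 0 in all 12. For Maoa the log2 fold change was -0.089 with array weights and -0.043 to 0.079 leaving out 1 array, with a negative sign without C1q replicate 2 (-0.017) or untreated replicate 2 (-0.043). For Slc18a2 it was -0.022 to 0.069 leaving out 1 array, negative without C1q replicate 2. Th moved to -0.13 with array weights. Signs turned under 3 of 12 alternatives for Ddc and Slc6a2, 2 for Slc6a3 and 1 for Th and Tph2, and the cause was not tested.

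Over all probe sets, a fit with array weights called 130 higher and 317 lower, where untreated replicate 3 had a weight of 5.51 and the other arrays 0.335 to 1.81. Without the filter 1 was lower. Leaving out 1 array at a time gave 0 to 28 higher and 0 to 10 lower, all of these calls without untreated replicate 2. With the replicate number as a block 9 were higher and 0 lower. Deviations of same-numbered arrays correlated at 0.014, -0.453 and -0.134, and those of differently numbered arrays at -0.371 to 0.452. With 3 arrays per group, this cannot tell whether same-numbered arrays share a preparation, and the labels give only the number. The rescaled counts of pathway genes without overlap, 3 and 4 against 9, and the marker sums without their brightest gene were chosen after seeing the data. Signal over background is unknown.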
